A study of Solanum lycopersicum with 6 samples.

Results

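The genes described here were read in wild-type embryos and in embryos with a knockout of a subunit of RNA polymerase IV. The genes encode the machinery that writes DNA methylation in plants. There are 10 of them, chosen by their locus numbers: NRPD1, the gene knocked out in the study, NRPE1, MET1, CMT2, CMT3, CMT4 and 4 genes of the DRM family, here called by their locus numbers. All listed regions that the authors had assigned to any of these genes were taken, which gave 33 regions of 132092. Of the 10 genes, 9 had at least 1 listed region, among 27473 genes named in the tables, and NRPD1 had none.

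Bisulfite libraries were made from Micro-Tom embryos 21 days after flowering, 3 from wild-type plants and 3 from SlNRPD1 knockout plants, called nrpd1; Micro-Tom is a dwarf tomato. The labels state neither the lesion in NRPD1, nor how many knockout lines were used, nor whether each library came from its own plant. The deposited tables list regions called different between the genotypes, with the authors' mean level per genotype and no value per library, so no error or test between libraries can be attached to a level below. Read depth is unknown, and the RNA named in the design text was not analysed here.

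In plants, methyl groups are placed on cytosine in the CG, CHG and CHH contexts, where H is A, C or T. RNA polymerase IV, whose largest subunit is NRPD1, makes short transcripts that are turned into small RNAs, and RNA polymerase V, whose largest subunit is NRPE1, makes the scaffold transcripts to which those small RNAs bind. DRM enzymes are then recruited and add methylation anew in all contexts. In Arabidopsis, MET1 copies CG methylation after replication, CMT3 maintains CHG methylation and CMT2 adds CHG and CHH methylation, both of the latter on chromatin that carries methylated histone H3.

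The methylation of these genes was lower in nrpd1 embryos mainly in the CHH context and mainly upstream of the transcription start. Each of the 9 genes with listed regions had a CHH loss in its promoter. In the authors' annotation this feature held regions whose nearest point to the start lay from 2000 bp before it to 250 bp after it. Such a region could reach further, as to 3539 bp upstream in NRPE1, and its level and width are those of the whole region. The wild-type CHH level of these 11 promoter losses ranged from 15.02% to 43.7%, and the nrpd1 level from 4.66% to 20.7%. The same was common in the genome, since 68.3% of all named genes had a promoter CHH loss and 73.2% had a CHH loss in promoter or body. Within 1 kb of the start, 8 of the 9 genes had a CHH loss, against 57.8% of named genes. The exception was the DRM gene Solyc10g078190, whose loss ended 1029 bp before the start. The losses of MET1 and CMT4 only just reached within 1 kb, with near ends at 973 and 980 bp. A gene without any region is in neither count, so NRPD1 is left out of the 9 and of the shares.

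**Figure D1:**
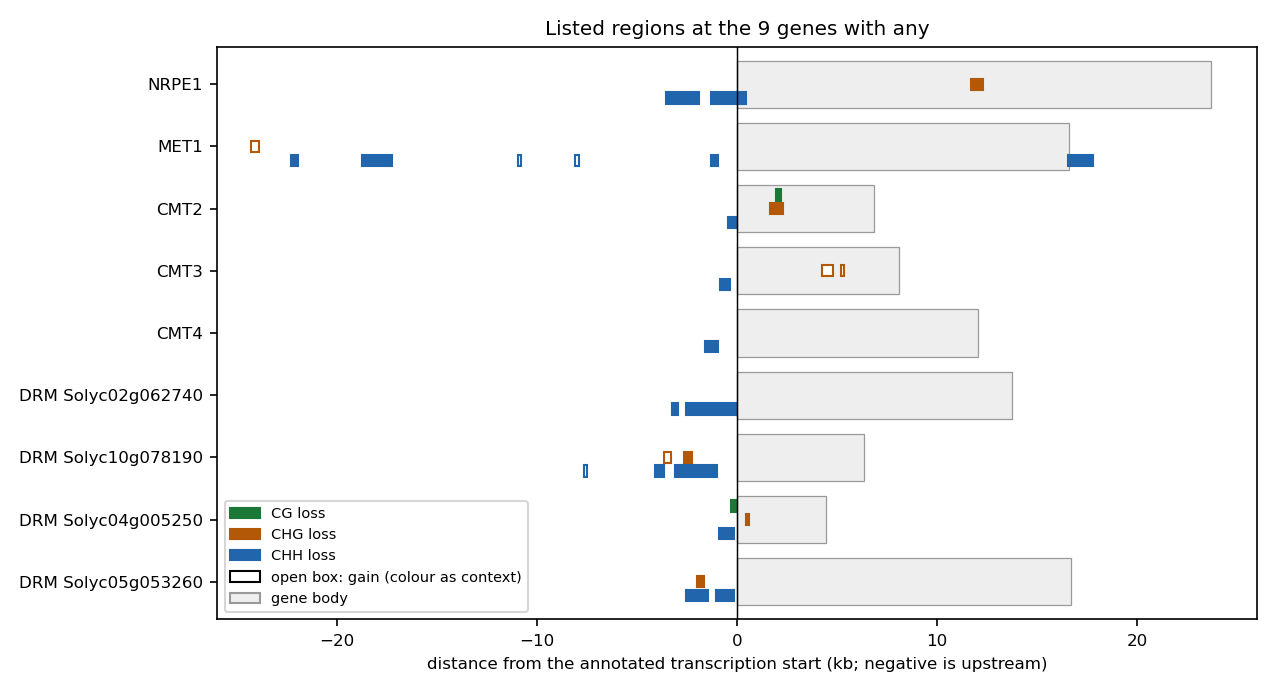
Positions of the 33 listed regions relative to the annotated transcription start of their gene (x axis, kb, transcription to the right), with 1 row for each of the 9 genes. Filled boxes are losses and open boxes are gains in nrpd1, coloured by context, drawn at least 0.15 kb wide, and grey boxes are gene bodies. CHH losses lie upstream of each start, and the body regions of NRPE1, CMT2, CMT3 and Solyc04g005250 are CHG or CG regions apart from the NRPE1 loss across the start.

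Counted over all contexts, the 33 regions held 17 CHH losses, 7 CHG losses, 2 CG losses, 4 CHG gains and 3 CHH gains, and no CG gain. Losses made up 17 of 20 CHH regions and 7 of 11 CHG regions, where over all listed regions 95.8% of CHH and 88.0% of CHG regions were losses. Both CG regions were losses, against 67.7% of all CG regions. Of the 7 gains, 5 lay in distal intergenic sequence, where a region can be assigned to a gene that lies far from it. The other 2 were CHG gains inside CMT3, so that 1 of the 9 genes had a CHG gain in promoter or body, against 3.14% of named genes. A distal place was usual for gains, as 3977 of all 5074 CHG gains and 2950 of all 3191 CHH gains were distal. Gains in promoter or body in CG and in CHH, listed for 4.82% and 0.739% of named genes, were listed for 0 of the 9. CHG losses in promoter or body were listed for 4 of the 9 genes, close to the 43.7% of all named genes, and CG losses for 2, against 13.4%. The CHG losses lay in the promoter in 1 gene (36.5% of named genes) and in exons or introns in 3 (12.6%). A CHH loss annotated as exon, intron or UTR was listed for 1 gene, MET1 (16.8%). For 4 genes, MET1, CMT4 and the DRM genes Solyc02g062740 and Solyc10g078190, a CHH loss was the only change listed in promoter or body, as it was for 28.8% of named genes.

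For NRPD1 itself no level can be given in either genotype, and the knockout could not be checked from these tables. Tomato locus numbers follow the order along the chromosome, and the nearest named loci on either side were Solyc08g080200 (chromosome 8, 61627051 to 61635663 in the SL4.0 assembly) and Solyc08g080220 (61646227 to 61652078). The 10.6 kb between them held 9 regions that the authors assigned to Solyc08g080200, and all were losses. The 4 CHH losses among them went from levels of 18.1% to 45.2% in wild type to 5.03% to 16.3% in nrpd1, the 3 CHG losses from 68.0% to 72.6% down to 22.7% to 32.0%, and the 2 CG losses from 90.1% and 93.6% to 68.3% and 74.6%. No region was listed from the end of the last of these, at 61642743, to the end of Solyc08g080220. The authors annotated these 9 regions as promoter of Solyc08g080200 or as distal intergenic, and none as exon or intron. Whether NRPD1 lies in this interval, and where, is not given in the tables. The 9 regions are therefore not counted as its own.

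NRPE1, the largest subunit of RNA polymerase V (Solyc01g096390, chromosome 1, 79734435 to 79758120, plus strand), carried the only listed region of the 33 that ran across a transcription start. This CHH loss reached from 1322 bp upstream to 435 bp inside the gene, held 345 CHH cytosines and went from 32.2% in wild type to 12.3% in nrpd1. A second CHH loss followed 569 bp further upstream, from 1892 to 3539 bp before the start, with 381 cytosines and levels of 39.8% and 20.7%. The second region kept 52.0% of its wild-type level, more than 90.4% of all 73614 CHH losses. The first kept 38.3%. CHH losses covered 71.6% of the 2 kb upstream of NRPE1, more than in 88.0% of named genes.

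Inside NRPE1, CHG methylation fell in a single intron. The authors placed 2 CHG losses in intron 13 of 21, from 11687 to 12320 bp inside the gene and 51 bp apart, with 6 and 17 CHG cytosines. The smaller one went from 19.5% to 6.68% and the wider one, of 457 bp, from 29.0% to 6.40%. Both started low for listed CHG losses, whose median wild-type level was 67.9% over all features and 64.2% in promoter or body. In the wider one 22.1% of the wild-type level was left, less than in all but 3.02% of the 37203 CHG losses. No CHH loss overlapped them. Among all listed regions, 75.7% of CHG losses, and 57.3% of those in exons, introns or UTRs, overlapped a CHH loss.

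DRM enzymes are the methyltransferases at the end of the RNA-directed pathway, and the promoters of all 4 DRM genes had lost CHH methylation. The activity of these 4 loci was not tested. Solyc02g062740 (chromosome 2, 32508528 to 32522255, plus strand) had the widest loss of the 33 regions, 2501 bp with 560 CHH cytosines, reaching from 73 to 2573 bp before the start. Wild type had 36.6% there and nrpd1 14.3%, a fall of 22.3 percentage points that exceeded 83.6% of CHH losses. This loss alone covered 96.4% of the 2 kb upstream, and CHH losses covered less of that window in 98.4% of named genes. A further loss of 267 bp, 399 bp upstream of the first and outside the 2 kb, went from 18.1% to 6.42%. No CG or CHG region was listed for this gene.

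Solyc05g053260 (chromosome 5, 62784717 to 62801391, plus strand) had the greatest CHH fall of the 33 regions. Between 149 and 1040 bp before its start, over 162 cytosines, the level went from 43.7% to 12.6%, a fall of 31.02 points that exceeded 98.5% of CHH losses. The next 404 bp held no listed region. A second loss, from 1445 to 2536 bp upstream with 283 cytosines, went from 21.4% to 6.52%. Inside that second loss lay 2 CHG losses, 61 bp apart and resting on only 6 and 4 CHG cytosines. Their levels went from 60.9% to 35.5% and from 58.1% to 30.7%. CHG methylation there kept 58.3% and 52.8% of the wild-type level, whereas CHH methylation in the enclosing loss kept 30.5%.

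Solyc04g005250 (chromosome 4, 203840 to 208271, minus strand) had losses in all 3 contexts, as did CMT2, and among named genes 8.25% had losses in promoter or body in all 3. Its CHH loss spanned 150 to 883 bp before the start, over 144 cytosines, and went from 35.9% to 10.3%. Its CG loss, at 60 to 331 bp with 11 CG cytosines, went from 55.5% to 28.5% and shared 182 bp with the CHH loss. The CHG loss lay apart from both, in intron 1 of 9 from 448 to 553 bp inside the gene, and went from 17.7% to 5.30% over 6 cytosines. A promoter CG loss was listed for 9.46% of named genes.

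Solyc10g078190 (chromosome 10, 59165327 to 59171688, minus strand) was the DRM gene whose losses stood furthest from the start, and the single one with losses and gains side by side. Its main CHH loss of 2072 bp, from 1029 to 3100 bp upstream with 455 cytosines, went from 33.0% to 8.75%. Within it lay a CHG loss that began at 93.8%, the highest wild-type level of the 33 regions, and went to 72.4%. Beyond the upstream end of the CHH loss, 222 bp away, CHG methylation changed in the other direction and rose from 30.7% to 77.9% over 13 cytosines in 349 bp. This gain of 47.2 points exceeded 96.6% of the 5074 CHG gains. It met, over 4 bp, the next CHH loss, which went from 32.5% to 17.9%. A small CHH gain, from 20.1% to 31.3%, lay 7499 bp upstream. The nearest named gene on that side was 17.6 kb away.

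**Figure D2:**
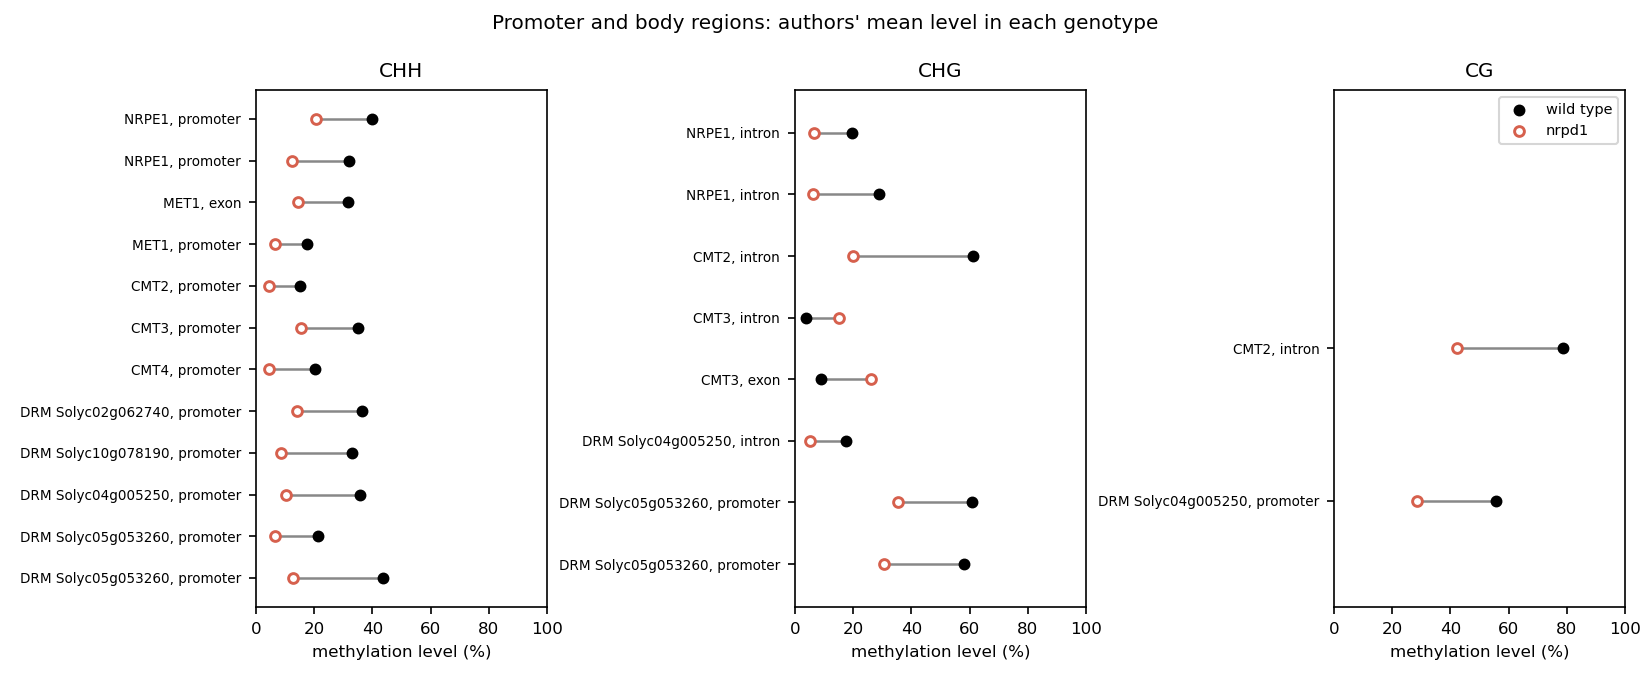
The authors' mean methylation level (x axis, percent) in wild type (filled) and nrpd1 (open) for each of the 22 promoter and body regions of the 9 genes, with 1 panel per context and 1 line per region. There are no error bars because the tables hold no value per library. In 20 of the 22 regions the nrpd1 level is the lower one, and the exceptions are the CHG regions in an intron and an exon of CMT3.

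The chromomethylases CMT2, CMT3 and CMT4, which bind methylated histone tails through a chromodomain, had promoter CHH losses of 416 to 633 bp, narrower than each of those of the DRM genes. CMT2 (Solyc12g100330, chromosome 12, 66624534 to 66631364, plus strand) had a CHH loss of 416 bp ending 36 bp before the start, from 15.02% to 4.72% over 60 cytosines. At 10.3 points it was the smallest fall of the 17 CHH losses, just above the minimum of 10 points in the tables, and 3.56% of all CHH losses were smaller. The larger change in CMT2 was inside the gene. In intron 3 of 19, CHG methylation went from 61.1% to 19.99% over 17 cytosines in 628 bp, a fall of 41.2 points that exceeded 90.5% of CHG losses. A CG loss lay wholly within it, from 78.5% to 42.1%, on 5 CG cytosines. No CHH loss was listed in this intron.

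CMT3 (Solyc01g006100, chromosome 1, 766314 to 774402, minus strand) was the one gene of the 9 with higher methylation inside the transcribed region. Its promoter had a CHH loss, from 35.1% to 15.5% over 85 cytosines between 366 and 873 bp before the start. In the body, a CHG region of 545 bp with 29 cytosines, 4261 to 4805 bp from the start, rose from 8.995% to 26.3%, or 2.92-fold. A second one of 54 bp with 8 cytosines, 389 bp further on, rose from 3.95% to 15.1%, or 3.83-fold. The authors annotated them as exon 16 of 22 and intron 8 of 21. Gains of CHG methylation in exons, introns or UTRs were listed for 2.05% of named genes, and 1.17% had both such a gain and a promoter CHH loss, a combination looked up after the CMT3 values had been seen. In points, the CMT3 gains were small, and they began low. The 700 body CHG gains of the tables had medians of 23.6% in wild type and 51.01% in nrpd1, with a median rise of 22.2 points. Relative to their low wild-type levels the CMT3 gains were large, since the 2.92-fold and 3.83-fold rises exceeded 85.1% and 94.3% of all 5074 CHG gains.

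The exon and intron numbers in the tables do not count in the same direction on the minus strand. Over 1514 minus-strand exon regions with at least 4 exons in the gene, the exon number fell with distance from the start (Spearman's rho -0.90 across regions, a description), while intron numbers rose on both strands (rho 0.80 and 0.77). The exon numbers of CMT3 and MET1 thus appear to be counted from the 3' end, and the position from the start given above is the safer guide.

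CMT4 (Solyc08g005400, chromosome 8, 306203 to 318247, plus strand) had 1 listed region, a CHH loss from 980 to 1612 bp upstream with 118 cytosines. It went from 20.2% to 4.66%, and the 23.1% that remained was the smallest share among the 17 CHH losses. Of all CHH losses, 14.1% retained less. No region was listed in its body of 12045 bp.

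MET1, the maintenance methyltransferase for CG sites (Solyc11g030600, chromosome 11, 21361536 to 21378146, minus strand), had 8 listed regions, the most of the 9 genes, of which 6 were distal. Its promoter loss was narrow, 325 bp from 973 to 1297 bp upstream, and went from 17.7% to 6.61% in CHH. A wider CHH loss of 1224 bp went from 31.6% to 14.6%. The authors annotated it as exon 1 of 12, but it lay at the 3' end. It shared 41 bp with the gene and extended 1183 bp beyond the annotated end. No CG region was listed for MET1.

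Upstream of MET1 the nearest gene named in the tables was 226 kb away, and distal regions along that stretch were assigned to MET1 up to 24.3 kb from its start. CHH gains stood 7.91 and 10.8 kb upstream, from 18.3% to 28.6% and from 16.03% to 26.4%. The 3 CHH losses between 17.3 and 22.3 kb upstream were among the weakest in relative terms, with 56.8% to 63.5% of the wild-type level left. These shares exceeded those of 94.8% to 98.3% of all CHH losses. A CHG gain at 23.9 kb went from 32.6% to 66.4%. All 5 distal CHH losses of the 9 genes kept a median of 56.8%, compared with 34.4% over all distal CHH losses, and 3 of the 5 are those of MET1.

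Set beside the whole tables, the promoter CHH losses of the 9 genes began from a higher median level and were larger in points. Medians were 33.0% for wild type and 10.3% for nrpd1, compared with 26.0% and 7.62% over the 24092 promoter CHH losses. The median region fell by 19.6 points and kept 31.4% of the wild-type level, whereas over all promoter CHH losses it fell by 17.2 points and kept 29.8%. Their median width was 892 bp, against 695 bp. No test was made of these differences, and several regions share a gene.

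**Figure D3:**
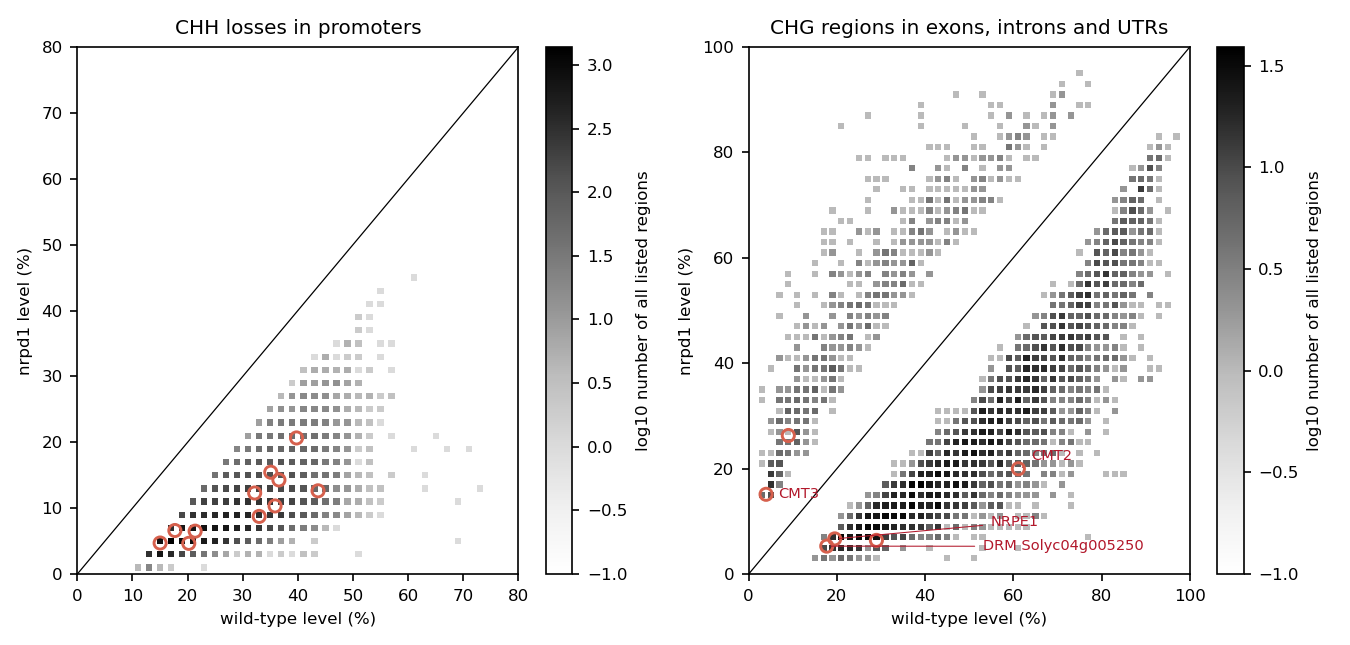
Wild-type level (x axis, percent) against nrpd1 level (y axis, percent) for all listed CHH losses in promoters (left) and all CHG regions in exons, introns and UTRs (right), as grey squares of 2 by 2 percentage points shaded by the log10 number of regions. Red circles are regions of the 9 genes and the line marks equal levels. The 11 promoter losses lie within the grey cloud, and the 2 CMT3 regions lie at the low end of the gains.

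The genes differed widely in how much of their upstream sequence was affected. CHH losses covered 16.3% of the 2 kb upstream of MET1, 20.8% in CMT2, 25.4% in CMT3 and 31.7% in CMT4. For CMT3 alone this window ran into another named gene, which lay 1695 bp upstream. In the DRM genes the share was 36.7% for Solyc04g005250, 48.6% for Solyc10g078190, 72.4% for Solyc05g053260 and 96.4% for Solyc02g062740. The 4 DRM genes and NRPE1, whose names place them in the RNA-directed pathway, all stood above MET1 and the 3 chromomethylases. This order was noticed in the data and not tested, and Solyc04g005250 and CMT4 were only 5.05 points apart. It also depends on the 2 kb window. Within 1 kb of the start, the DRM gene Solyc10g078190 had no CHH loss, its nearest ending 1029 bp upstream. MET1 and the 3 chromomethylases each had a CHH loss there. Those of MET1 and CMT4 began only 973 and 980 bp upstream, however, and lay mostly beyond 1 kb. For the 2 kb window the median over all named genes was 29.4%, so that MET1, CMT2 and CMT3 were below it. In the bodies, by contrast, CHH losses covered at most 1.84% of any of the 9 genes, and 7 of them had none. Counted by any overlap with the gene, whatever feature the authors annotated, a CHH loss reached into the body of NRPE1 and MET1 and of 27.5% of named genes.

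**Figure D4:**
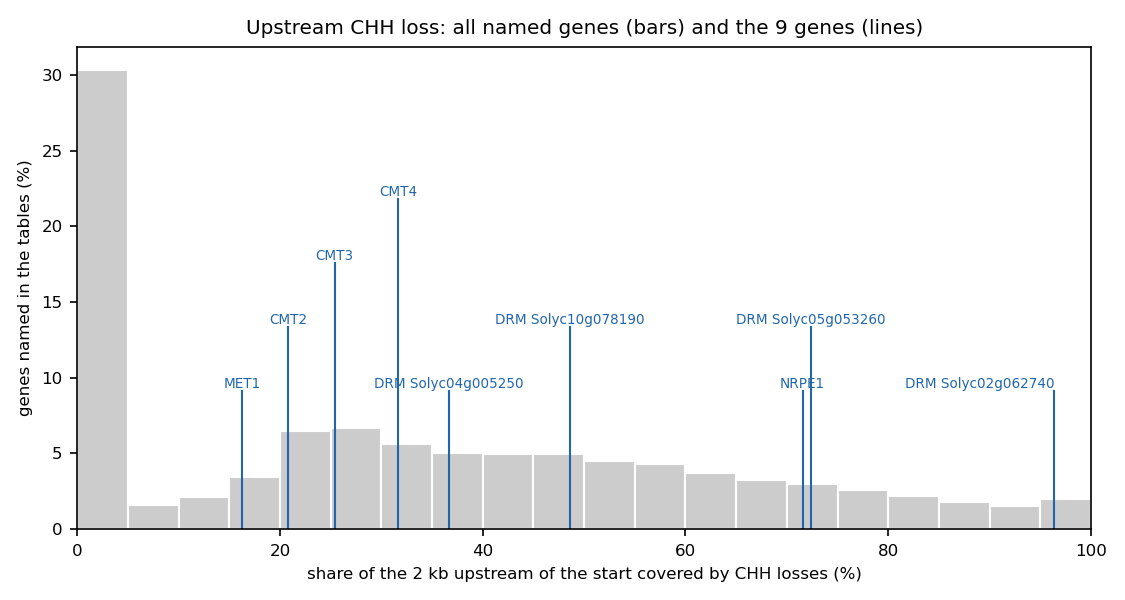
Share of the 2 kb upstream of the transcription start covered by CHH losses (x axis, percent) for all 27473 named genes (grey bars, percent of genes on the y axis, bins of 5 points) and for the 9 genes (blue lines, whose heights only separate the labels). The first bar holds 8010 genes with no coverage. MET1 is lowest of the 9 at 16.3% and Solyc02g062740 highest at 96.4%.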

How the data were processed

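Bisulfite-converted embryo DNA was measured in 6 libraries, 3 per genotype, grouped by the sample titles. Trim Galore 0.6.7 and Bismark 0.24.0 are named in the submitters' processing notes with no role. The region caller with its cut-offs, the tool behind the annotation, the bisulfite conversion rate and the read depth are not stated in the labels or headers. The authors deposited methylation as a fraction, 1 mean per genotype and region, in SL4.0 coordinates per the file headers; fractions are printed as percent. A deposited score, the authors' region statistic, served only to select regions in an alternative. Every listed region differed by at least 10 points, held at least 4 cytosines and was at least 50 bp wide, so levels are those of a selected set. Incomplete conversion would raise CHH levels.

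Computed here (Python 3.11.15, pandas 2.3.3, checked on simulated regions) were differences (nrpd1 minus wild type), the share of the wild-type level left, percentiles among listed regions of the same context and direction, and upstream coverage by regions of any assignment. Promoter or body means promoter, UTR, exon or intron in the authors' annotation. No test was made. Genes and lists were chosen with earlier results of these data known. All 10 genes and their regions were named. For each gene with promoter or body regions in at least 2 contexts, the 3 genes nearest in cytosine-weighted levels were also sought. Locus numbers could not be paired with the RefSeq gene table, so a planned list of further pathway genes and sequences was not used here. Alternatives were 20 points, 10 cytosines, the upper 50% of the region statistic, a 5 kb limit and weighting by cytosines.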

Additional observations from a re-analysis of the deposited data

How the results depend on the processing

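Requiring a difference of at least 20 points left 4 CHH losses, 2 gains and 4 genes with a promoter or body CHH loss, and moved the medians of the CHH and CHG differences to -24.9 and -25.4 points and the median share of CHH left to 28.9%. In place of these, all listed regions gave 17 losses, 7 gains, 9 genes, -15.6 and -22.6 points and 38.3%. With at least 10 cytosines, 2 CHG losses in 2 genes and 1 CG loss in 1 gene were left, and the median CHG difference was -31.9 points. The upper 50% of the region statistic left 9 CHH and 2 CHG losses, 0 CG losses and 3 gains. In promoter or body it left 6 genes with a CHH loss, in place of 9, 2 with a CHG loss and 0 with a CG loss. The medians were then -19.9 (CHH) and -31.9 (CHG) points. Limiting regions to 5 kb of the start or the body left 3 gains, a median CHH difference of -18.1 points and 36.5% of CHH left. Weighting by cytosines gave means of -19.1 (CHH) and -25.998 (CHG) points and 40.1% left. Shares of all named genes were not taken under these alternatives, so whether the counts fell more here than elsewhere was not tested. The number of regions overlapping the genes or their 2 kb upstream, 20 losses and 2 gains, was the same whatever gene they had been assigned to, a check chosen after seeing the data. Several CHG and CG losses rest on 4 to 6 cytosines. No paired analysis was possible because the tables hold 1 mean per genotype, and for the same reason no library could be left out.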

Other observations

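The genes with the most similar levels were sought for the 5 genes with promoter or body regions in at least 2 contexts. Likeness was the Euclidean distance, in percentage points, between cytosine-weighted mean levels in both genotypes, over 4 levels for genes with CHG and CHH regions (8378 other genes) and over 6 for genes with all 3 contexts (2734 other genes). For CMT3, with its lower CHH and higher CHG methylation, the nearest was Solyc10g054280 at 6.03 points, with CHH levels of 37.5% in wild type and 18.2% in nrpd1 and CHG levels of 6.59% and 19.3%. The next nearest for CMT3 stood at 7.18 and 7.71 points, against a median distance of 60.5. For CMT2 the nearest was Solyc01g096590 at 6.27 points, with CG levels of 78.9% and 44.1%, CHG levels of 57.7% and 15.9% and CHH levels of 17.4% and 3.68%, and the next were at 6.83 and 7.74. The 3 nearest stood at 1.76 to 4.85 points for NRPE1, at 1.37 to 1.48 for Solyc05g053260 and at 8.70 to 12.7 for Solyc04g005250. Median distances were 50.8 for NRPE1, 38.7 for CMT2, 22.3 for Solyc05g053260 and 64.6 for Solyc04g005250. The genes compared had the same contexts, whether their regions were losses or gains. The files do not pair locus numbers with gene names, so the other neighbours are not listed. The genes were ranked on the same libraries and share them, and nothing on function follows from the distances.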
